A study of Danio rerio with 6 samples.

Results

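The libraries numbered 1, one from sih embryos and one from wild-type (WT) embryos, were set against the 4 libraries numbered 2 and 3, with genotype as a covariate. They were chosen by the replicate number in the library titles, which gave 2 of 6 libraries to replicate 1. All 6 were mRNA-seq libraries from tails of AB-strain zebrafish (Danio rerio) at 28 hours post fertilisation. sih (silent heart) embryos carry a mutation in the cardiac troponin T gene tnnt2a and have no heartbeat; WT embryos of the same strain and stage were the controls, and no other treatment is described. What a replicate number stands for (clutch, day, dissection or library preparation), how many tails went into a library and where the tail was severed are not stated in the labels.

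At this stage the tail bud of a zebrafish has nearly finished laying down somites. Behind it, muscle fibres, notochord, neural tube, fin fold and pronephric ducts mature from front to back, and tail bud genes are shut off as new tissue differentiates. Hatching gland cells lie over the yolk and head, the yolk syncytial layer wraps the yolk, and heart, brain, eye and lens lie in front of the trunk. Markers of these tissues therefore report both the developmental stage of the embryos and how much of the body was taken with the tail, and the values below do not tell these apart.

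The libraries held between 21240839 and 27222955 reads assigned to genes. The replicate 1 libraries had 21240839 (sih) and 22732979 (WT) reads, against 26552487, 27222955, 21482799 and 27006629 in sih 2, WT 2, sih 3 and WT 3. Genes with at least 1 read numbered 22624 (sih) and 23203 (WT) in replicate 1, against 22591, 22813, 21350 and 22450 in replicates 2 and 3. Depth and the number of detected genes thus overlapped between the sets when genotypes were pooled. Within each genotype, however, replicate 1 had the fewest reads and the most detected genes. The first principal component carried 56% of the variance and placed both replicate 1 libraries (scores of -109.2 in sih and -101.8 in WT) opposite the other 4 (44.6 to 60.4). The sih and WT libraries of any 1 number had Spearman correlations over genes of 0.982 to 0.988. Replicate 1 correlated with replicates 2 and 3 at 0.937 to 0.952 over 8 pairs of libraries, and replicate 2 with replicate 3 at 0.965 to 0.981 over 4 pairs.

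**Figure D1:**
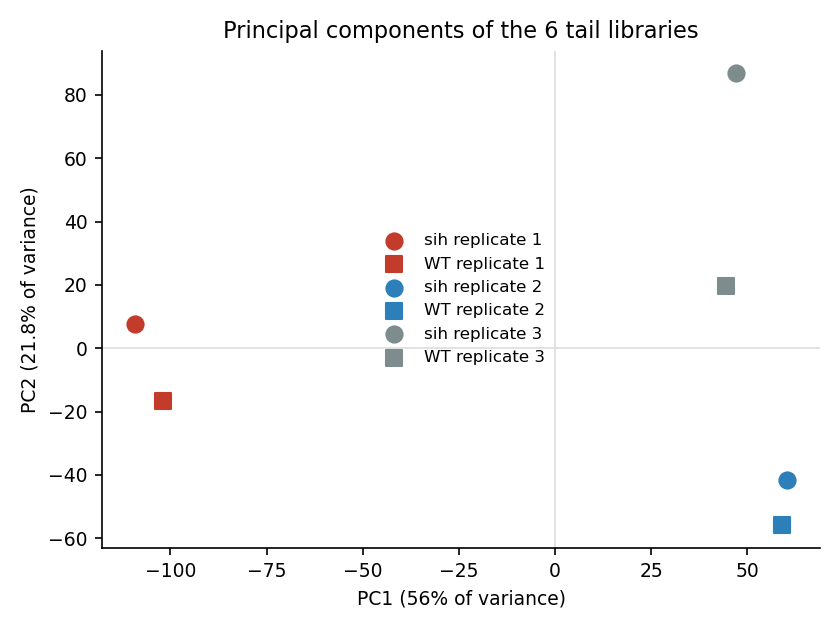
First and second principal components of log2(normalised count + 1) over the tested genes, with circles for sih, squares for WT and 1 colour for each replicate number. Both replicate 1 libraries lie at or below -101.8 on the first axis and the other 4 at or above 44.6, while the second axis (21.8% of the variance) separates replicate 3 from replicate 2.

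Levels are the deposited normalised read counts. Values are listed as sih then WT within replicate 1, and as sih 2, WT 2, sih 3 and WT 3 within replicates 2 and 3. Changes are log2 differences of replicate 1 over replicates 2 and 3 on the log2(normalised count + 1) scale, ± SE from limma, and a gene is called at a Benjamini-Hochberg adjusted p under 0.05 over all tested genes. Of 23097 tested genes, 6784 (29.4%) were called, 3735 higher (16.2%) and 3049 lower (13.2%) in replicate 1. The counts of called genes in each list below are to be read against these shares. Among the called genes, 2651 were more than 2-fold higher and 1285 more than 2-fold lower, and 321 were more than 8-fold higher against 24 more than 8-fold lower. The median change over all tested genes was 0.06, with quartiles of -0.52 and 0.73. Both replicate 1 libraries lay above all 4 others for 6566 genes (28.4%) and below all 4 for 5336 (23.1%), or 51.5% in all. Of the called genes, 6737 (29.2% of the tested genes) were separated in this way. Nearly all called genes were thus separated, so separation of the genes named below follows largely from how they were chosen.

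These calls treat the sih and WT libraries of 1 number as separate samples, although such pairs resembled each other closely. With the number kept as a 3-level block, 11866 genes (51.4%) passed. The error of that fit holds only the disagreement of sih and WT within a number, and not the spread between numbers 2 and 3. It thus leans on the paired libraries as replicates even more than the main fit, and its larger count is no remedy. With the number as a random effect, 3992 passed. When each number was reduced to the mean of its sih and WT libraries, 1 value stood against 2 and no gene passed (0% called), with 4590 genes under an unadjusted p of 0.05 and a smallest adjusted p of 0.235. No gene passed either without sih replicate 1 or without WT replicate 1, where a single replicate 1 library remained. The p-values measure the spread among these 6 libraries only.

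Among the called genes, the difference took the same direction in both genotypes. Every one of the 6784 called genes changed with the same sign within sih (sih 1 against sih 2 and 3) and within WT, which the additive test favours; over all tested genes the share was 81.9%. Across genes, the 2 changes had a Pearson r of 0.778 and a Spearman rho of 0.763, where each change is made from separate libraries but sih and WT of 1 number may share a source. The test of whether the replicate 1 difference differed between genotypes called 0 of 23097 genes (0%) with limma, and 0 with edgeR; 480 and 71 genes were under an unadjusted p of 0.05. With only 1 replicate 1 library in each genotype, that test had little power, so 0 calls do not show that the genotypes agree. The smallest p of that test (0.000517, adjusted p = 1) belonged to rx1, a retinal homeobox gene, which had 0 and 20.2 normalised counts in replicate 1, against 0 in each of the other 4 libraries.

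**Figure D2:**
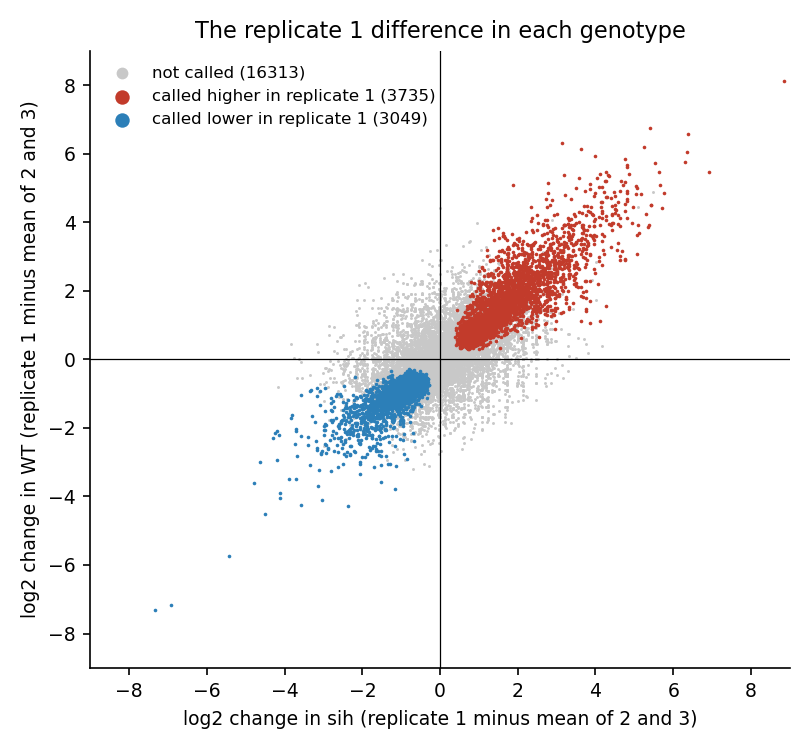
Each point is a tested gene, placed by its log2 change within sih (horizontal axis) and within WT (vertical axis), both as replicate 1 minus the mean of replicates 2 and 3. Genes called higher (3735) fall in the upper right and genes called lower (3049) in the lower left, with no called gene in the other quadrants. The additive test favours genes whose changes share a sign, so the empty quadrants follow largely from the calling.

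The gene with the largest rise in replicate 1 was RRM2 (1 of 2) (ENSDARG00000078069), a copy of the gene for the small subunit of ribonucleotide reductase, which makes deoxynucleotides. It had 720.4 and 580.4 normalised counts in replicate 1, against 0, 3.3, 1.43 and 0 in replicates 2 and 3 (log2 change 8.49 ± 0.68, limma adjusted p = 0.0015). The other copy, rrm2 (ENSDARG00000020711), went the opposite way, with 719 and 662 normalised counts in replicate 1, against 3265, 3196, 3048 and 3081 in replicates 2 and 3 (-2.19 ± 0.13, adjusted p = 0.00116). Summed over both copies, the counts were 1440 and 1242 in replicate 1, against 3265, 3199, 3050 and 3081 in replicates 2 and 3. The annotated copies may share reads, so their separate values are uncertain, whereas the sum was lower in both replicate 1 libraries than in the other 4.

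heatr1, a nucleolar factor for ribosomal RNA transcription, had 80.5 and 65.1 normalised counts in replicate 1, against 0, 0, 0 and 0 in replicates 2 and 3. Against a floor of 3 reads per library, this was at least 23.3-fold higher in replicate 1. MGRN1 (3 of 3), a copy of a ubiquitin ligase gene, had 78.3 and 53.2 normalised counts in replicate 1, against 0, 0, 0 and 0 in replicates 2 and 3, at least 21-fold higher. SPTBN1 (2 of 2), which encodes a beta-spectrin of the membrane skeleton, had 1617 and 1497 normalised counts in replicate 1, against 22.2, 9.91, 61.6 and 16.7 in replicates 2 and 3 (6.08 ± 0.48, limma adjusted p = 0.0015). The replicate 1 libraries were thus more than an order of magnitude above the others for each of these genes. he1b, a hatching enzyme gene, had 76 and 325 normalised counts in replicate 1, against 0.926, 4.13, 2.87 and 6.88 in replicates 2 and 3 (5.25 ± 0.47, adjusted p = 0.00156), and its sih and WT replicate 1 values differed from each other as well. nadl1.1, a gene of the L1 family of neural adhesion molecules, had 240.5 and 170.5 normalised counts in replicate 1, against 3.71, 0, 15.8 and 7.86 in replicates 2 and 3. The other 9 of the 15 largest rises among genes with a mean of at least 50 were si:ch211-24n20.3, PDXK (2 of 3), BICD2 (2 of 2), CU041398.1, NLRX1 (4 of 54), mchr1b, si:zfos-1697h8.2, PLEKHG1 and DMXL2 (1 of 2). The 15 ranged from 4.96 to 8.49 on the log2 scale.

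The largest falls included genes without a single read in replicate 1. zgc:194221 had 0 and 0 normalised counts in replicate 1, against 133, 171, 196 and 144 in replicates 2 and 3, which was at least 52.4-fold lower in replicate 1 against a floor of 3 reads per library. CABZ01031753.1 had 0 and 0 normalised counts in replicate 1, against 220.5, 230.4, 65.9 and 89.4 in replicates 2 and 3, at least 49.2-fold lower. mhc1uma, an MHC class I gene, had 0 and 0 normalised counts in replicate 1, against 77.8, 97.4, 22.9 and 27.5 in replicates 2 and 3; replicate 2 was above replicate 3 for it as well. selenol, a selenoprotein gene, had 1.13 and 3.67 normalised counts in replicate 1, against 83.4, 106, 40.1 and 29.5 in replicates 2 and 3. rtn3, a reticulon of the endoplasmic reticulum, showed a narrow spread, with 53.3 and 41.3 normalised counts in replicate 1, against 458, 425, 487 and 369.5 in replicates 2 and 3 (-3.18 ± 0.17, limma adjusted p = 0.00078). CARTPT, a copy of the neuropeptide precursor gene cart, had 29.5 and 34.8 normalised counts in replicate 1, against 247, 240.3, 205 and 195 in replicates 2 and 3 (-2.74 ± 0.22, adjusted p = 0.0015). MUSTN1 (2 of 2), a musculoskeletal nuclear protein gene, had 21.6 and 12.8 normalised counts in replicate 1, against 111, 92.5, 143 and 137 in replicates 2 and 3. The remaining members of the 15 largest falls were dap1b, MUC16 (3 of 3), zgc:136254, PARP6 (1 of 2), si:dkey-287i17.3, BAALC, MUC3A and A2LD1 (1 of 3), and the 15 ranged from -7.33 to -2.60.

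Proteasome, ribosomal protein, oxidative phosphorylation and splicing genes were called lower in replicate 1 more often than higher. The proteasome, which degrades ubiquitin-tagged proteins, had 41 of 56 tested members called lower and 0 higher, against the background of 13.2% lower and 16.2% higher, and a median log2 change of -0.95 against 0.06 over all genes. Its core subunit gene psmb3 had 1085 and 1343 normalised counts in replicate 1, against 3619, 3332, 3785 and 3776 in replicates 2 and 3 (-1.59 ± 0.15, limma adjusted p = 0.00163). psma5, another core subunit, had 1770 and 1826 normalised counts in replicate 1, against 4061, 4324, 3825 and 4139 in replicates 2 and 3. psmd4b, a ubiquitin receptor of the cap, had 786 and 878 normalised counts in replicate 1, against 1924, 1987, 2087 and 2267 in replicates 2 and 3. All 3 were lower in both replicate 1 libraries than in any other. Mitochondrial ribosomal protein genes had 64 of 76 called lower and 2 higher (median -0.82); mrps18c had 345 and 377 normalised counts in replicate 1, against 850.4, 949, 775 and 835 in replicates 2 and 3. The 2 called higher, MRPS12 (2 of 2) and MRPL53 (2 of 2), were second copies of genes whose first copy was lower.

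Cytosolic ribosomal protein genes, among the most abundant of any embryo, had 35 of 84 called lower and 0 higher (median -0.71), and 66 had both replicate 1 libraries below the other 4 (23.1% of all tested genes did). Together they took 12.2% and 11.2% of reads in sih and WT replicate 1, against 16.3%, 14.1%, 18.4% and 16.1% in replicates 2 and 3. rps29 had 18740 and 15670 normalised counts in replicate 1, against 40980, 28240, 63070 and 44940 in replicates 2 and 3 (-1.31 ± 0.27, limma adjusted p = 0.0118), so that replicates 2 and 3 also differed between themselves. Nuclear genes of oxidative phosphorylation had 61 of 99 lower and 5 higher (median -0.67); NDUFC2, of respiratory complex I, had 483 and 454 normalised counts in replicate 1, against 1196, 1039, 1276 and 1330 in replicates 2 and 3. ndufa1, of the same complex, had 1163 and 1102 normalised counts in replicate 1, against 2525, 2382, 2995 and 2555 in replicates 2 and 3. Among the mitochondrial genome's own genes, 2 of 13 were called lower, mt-atp8 and mt-atp6, and the median was -0.11, or 0.32 against replicate 3 alone, -0.44 against replicate 2 alone and 0.10 with library totals as the scaling. Splicing and RNA binding genes had 43 of 83 lower and 2 higher (median -0.58), among them the Sm protein gene snrpd2 with 922 and 1015 normalised counts in replicate 1, against 2390, 2508, 2428 and 2569 in replicates 2 and 3.

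**Figure D3:**
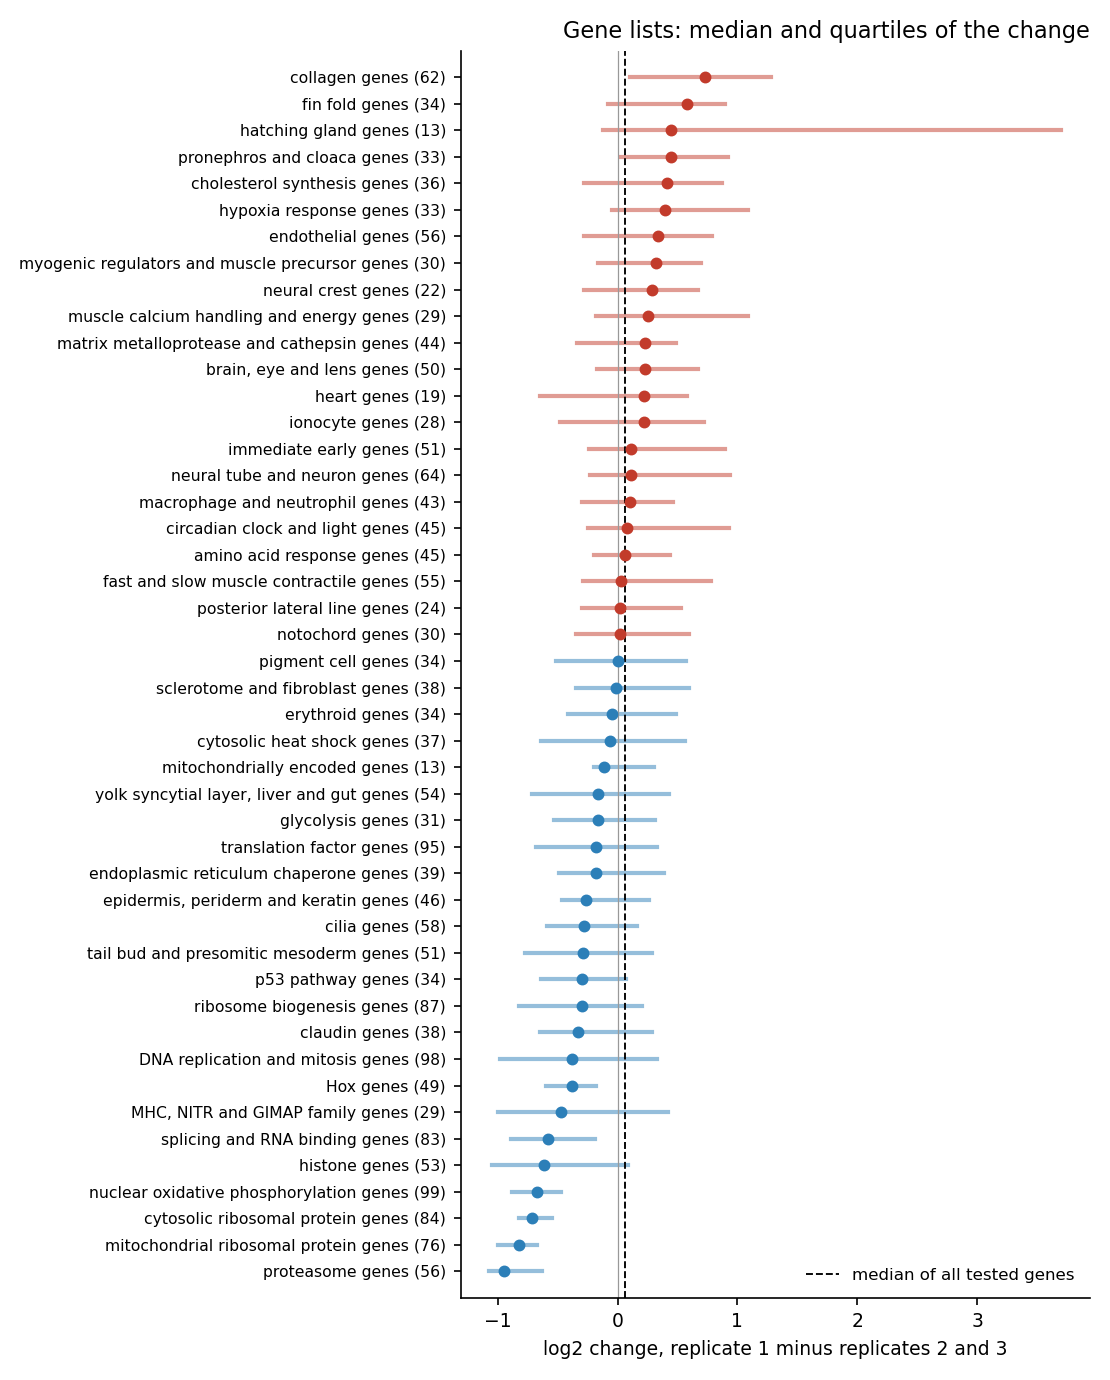
Median log2 change (dot) and quartiles (bar) of 46 gene lists, replicate 1 minus replicates 2 and 3, with the number of tested members in brackets and the median of all tested genes (0.06) as a dashed line. Proteasome, ribosomal protein, oxidative phosphorylation, histone and splicing genes lie lowest, and collagen, fin fold, hatching gland and pronephros genes lie highest.

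Further families were grouped after the values were known, so their counts are descriptions. Of 112 tested genes for very large proteins (spectrins, ryanodine receptors, chromatin remodellers, giant kinases and the like), 75 were called higher and 1 lower, with a median of 1.05; they took 0.984% and 1.15% of reads in sih and WT replicate 1, against 0.571%, 0.59%, 0.49% and 0.57% in replicates 2 and 3. itpr2, a calcium channel of the endoplasmic reticulum, had 335 and 269.6 normalised counts in replicate 1, against 38.9, 28.1, 37.2 and 39.3 in replicates 2 and 3 (3.04 ± 0.25, limma adjusted p = 0.0015). lrp1, a large endocytic receptor, had 3037 and 2584 normalised counts in replicate 1, against 707, 656, 1027 and 873 in replicates 2 and 3. chd7, a chromatin remodeller, had 7344 and 5870 normalised counts in replicate 1, against 3207, 3138, 3460 and 3466 in replicates 2 and 3. In each of these, both replicate 1 libraries were above all 4 others. The 1 called lower was atr, a DNA damage kinase, with 272 and 248 normalised counts in replicate 1, against 487, 549.9, 695 and 814 in replicates 2 and 3.

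Among the subunits of RNA polymerase II, 1 was called higher and 10 lower. polr2a, the catalytic subunit of RNA polymerase II, had 3744 and 3238 normalised counts in replicate 1, against 501, 635, 825 and 743 in replicates 2 and 3 (2.39 ± 0.22, limma adjusted p = 0.00162). Of the other 11 subunit genes, 10 were called lower; polr2f had 301 and 376 normalised counts in replicate 1, against 850.4, 829.8, 1053 and 1027 in replicates 2 and 3. polr2c had 524 and 558 normalised counts in replicate 1, against 1194, 1164, 1531 and 1459 in replicates 2 and 3. polr2b, the second largest subunit, had 2135 and 1900 normalised counts in replicate 1, against 1953, 1854, 3609 and 3167 in replicates 2 and 3 and was not called (adjusted p = 0.423). Myosin heavy chain genes had 12 of 20 higher and 0 lower (median 1.32), and myosin light chain genes 2 of 15 higher and 2 lower (median -0.31). Dynein heavy chain genes had 4 of 17 higher (23.5%, against 16.2% of all tested genes) and 0 lower (median 0.59), with 13 not called, and dynein light chain genes 0 of 9 higher and 8 lower (median -1.03). dynlrb1, a dynein light chain, had 419 and 474 normalised counts in replicate 1, against 1362, 1219, 1051 and 1239 in replicates 2 and 3 (-1.44 ± 0.16, adjusted p = 0.00202). Mitochondrial import translocase genes had 16 of 21 lower and 0 higher (median -0.81). Plexin and Notch receptor genes had 13 of 20 higher and 0 lower (median 0.94); notch1b had 1273 and 892 normalised counts in replicate 1, against 126, 126, 179 and 155 in replicates 2 and 3. Transcript and protein lengths were not used here, so whether length itself tracks the change over all genes was not tested.

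**Figure D4:**
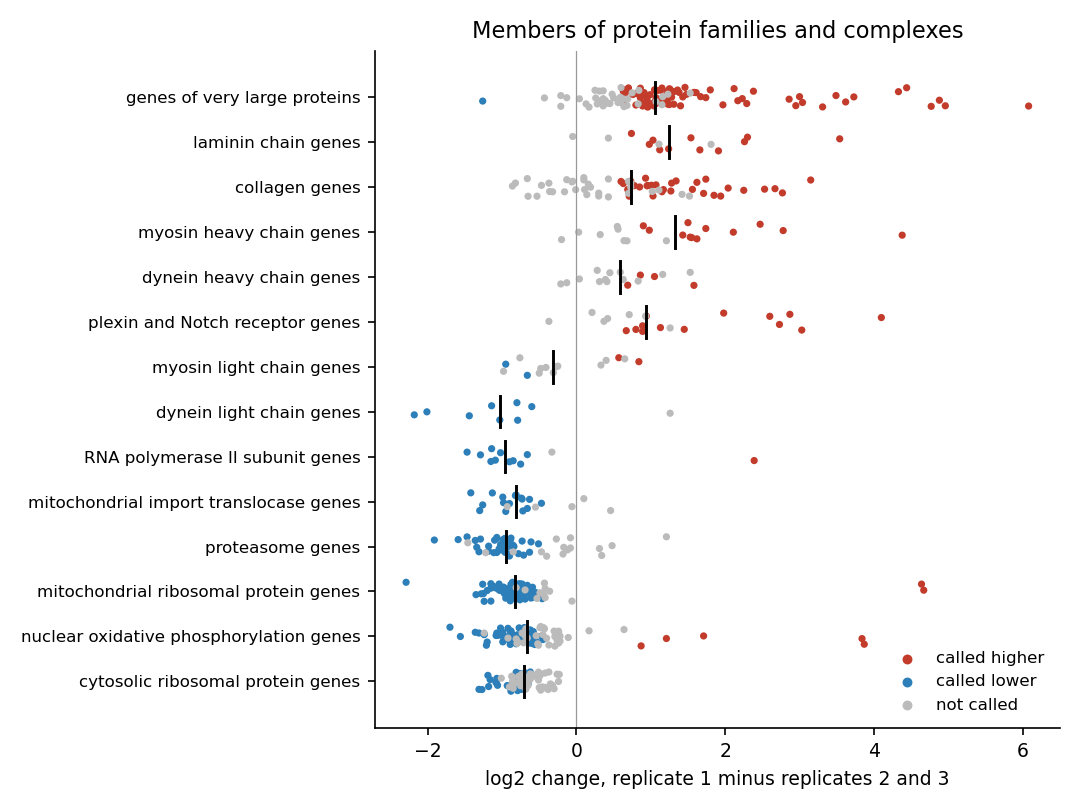
Each dot is a tested member of a protein family or complex, placed by its log2 change (replicate 1 minus replicates 2 and 3), in red where called higher, blue where called lower and grey where not called; black bars are medians. The medians of the upper 6 families lie to the right of 0 and those of the lower 8 to the left, with polr2a at 2.39 among the RNA polymerase II subunits.

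Collagen and laminin genes were called in 1 direction only. Collagen genes had 30 of 62 tested members called higher and 0 lower (background 16.2% and 13.2%; median 0.73), and took 3.68% and 3.47% of reads in sih and WT replicate 1, against 2.76%, 3.02%, 2.79% and 2.87% in replicates 2 and 3. col6a1, of the microfibrillar collagen VI around muscle, had 930.2 and 1254 normalised counts in replicate 1, against 268, 273, 224 and 285 in replicates 2 and 3 (2.04 ± 0.16, limma adjusted p = 0.0015). col4a1, of basement membranes, had 358 and 349 normalised counts in replicate 1, against 46.3, 57.8, 57.3 and 44.2 in replicates 2 and 3 (2.77 ± 0.23, adjusted p = 0.00153). Both replicate 1 values exceeded every other library for each gene. The abundant notochord collagen gene col2a1a was not called, with 124200 and 90810 normalised counts in replicate 1, against 103300, 104100, 137700 and 122900 in replicates 2 and 3 (adjusted p = 0.726). Laminin chains, the cross-shaped proteins of basement membranes, had 11 of 15 higher and 0 lower (median 1.24, a list drawn up after the values were known); lama2, the laminin chain of muscle, had 1234 and 1096 normalised counts in replicate 1, against 279, 229.5, 199 and 271 in replicates 2 and 3. lamc1 had 8179 and 8260 normalised counts in replicate 1, against 3518, 3274, 3311 and 3817 in replicates 2 and 3.

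Fin fold genes had 15 of 34 higher and 2 lower (median 0.58), and took 0.3% and 0.336% of reads in sih and WT replicate 1, against 0.154%, 0.169%, 0.139% and 0.159% in replicates 2 and 3. frem2a, which anchors the fin epidermis to its basement membrane, had 1203 and 1634 normalised counts in replicate 1, against 297, 343, 324 and 285 in replicates 2 and 3 (2.17 ± 0.17, limma adjusted p = 0.0015). and2, which encodes a fibre protein of the fin fold (actinodin), had 9055 and 10510 normalised counts in replicate 1, against 3999, 4735, 4409 and 5130 in replicates 2 and 3. and1 had 16070 and 16530 normalised counts in replicate 1, against 6068, 6217, 8726 and 8628 in replicates 2 and 3. Among sclerotome and fibroblast genes (6 higher and 5 lower of 38; median -0.01, or 0.20 with library totals), fn1b (fibronectin) had 4492 and 3523 normalised counts in replicate 1, against 648, 667, 919.7 and 768 in replicates 2 and 3. tnc (tenascin C) had 16450 and 15030 normalised counts in replicate 1, against 6004, 6383, 6724 and 6819 in replicates 2 and 3. Both of these matrix protein genes were higher in both replicate 1 libraries than in any other.

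In the list of muscle contractile genes, 16 of 55 were called higher and 3 lower, the median was 0.03, and the list took 14.6% and 14.4% of reads in sih and WT replicate 1, against 13.6%, 12.9%, 17.1% and 15.9% in replicates 2 and 3. Myosin heavy chains led: smyhc1, of slow fibres, had 27720 and 35800 normalised counts in replicate 1, against 11400, 10750, 10650 and 10330 in replicates 2 and 3 (1.55 ± 0.17, limma adjusted p = 0.00202). myhz2, of fast fibres, had 37400 and 48750 normalised counts in replicate 1, against 15360, 13730, 13450 and 13050 in replicates 2 and 3 (1.62 ± 0.18, adjusted p = 0.0021). smyhc3 had 187 and 210 normalised counts in replicate 1, against 5.56, 12.4, 8.6 and 8.85 in replicates 2 and 3. The abundant light chain gene mylpfa had 312600 and 235400 normalised counts in replicate 1, against 332500, 312600, 361500 and 338700 in replicates 2 and 3, and was not called (adjusted p = 0.451); the thin-filament gene tnni2b.1 was lower, with 34730 and 28680 normalised counts in replicate 1, against 52280, 45280, 49430 and 46300 in replicates 2 and 3. The more abundant fast myosin genes myhz1.1 and myhz1.3 were 2 of the 3 most abundant genes called higher, the other being the chaperone gene hsp90ab1 (73960 and 57410 normalised counts in replicate 1, against 33690, 24270, 42610 and 36470 in replicates 2 and 3). Muscle calcium handling and energy genes had 11 of 29 higher and 1 lower. The median was 0.25, or 0.04 without replicate 2, 0.08 without replicate 3, 0.11 without sih replicate 2 and 0.46 with library totals. cacna1sa, the voltage sensor of muscle, had 1587 and 1617 normalised counts in replicate 1, against 359, 353, 433 and 454 in replicates 2 and 3. ryr1b, a calcium release channel, had 7029 and 6245 normalised counts in replicate 1, against 2373, 2079, 1953 and 2271 in replicates 2 and 3.

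Regulators of muscle formation moved in both directions (10 higher and 4 lower of 30, median 0.32). The precursor genes pax7b and pax7a were higher. pax7b had 219 and 241 normalised counts in replicate 1, against 96.3, 112, 94.5 and 109 in replicates 2 and 3. pax7a had 51 and 35.8 normalised counts in replicate 1, against 6.48, 9.91, 7.16 and 5.9 in replicates 2 and 3. The fusion protein gene tmem8c (myomaker) was lower. tmem8c had 269 and 176 normalised counts in replicate 1, against 486, 413, 570.2 and 507 in replicates 2 and 3. myog, a myogenic transcription factor, had 500.3 and 287 normalised counts in replicate 1, against 768, 549, 1009 and 825 in replicates 2 and 3. For all 4, the replicate 1 libraries lay outside the range of the other 4, as they did for 51.5% of all tested genes.

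Tail bud and presomitic mesoderm genes, which mark the growing end of the body, had 11 of 51 called lower and 5 higher (median -0.29). msgn1, a regulator of presomitic mesoderm, had 30.6 and 25.7 normalised counts in replicate 1, against 159, 115, 165 and 111 in replicates 2 and 3 (-2.23 ± 0.22, limma adjusted p = 0.00183). sp5l, a Wnt target of the tail bud, had 206 and 156 normalised counts in replicate 1, against 359, 312, 415 and 336 in replicates 2 and 3. ripply1, which acts where somite boundaries form, had 85.1 and 77 normalised counts in replicate 1, against 165, 134, 142 and 125 in replicates 2 and 3. cyp26a1, which degrades retinoic acid in the tail bud, had 227 and 175 normalised counts in replicate 1, against 607, 273, 357 and 351 in replicates 2 and 3. These 4 were lower in both replicate 1 libraries than in any other, though cyp26a1 in WT 2 stood well under sih 2. cdx4, a caudal homeobox gene, had 196 and 169.6 normalised counts in replicate 1, against 402, 389, 279 and 260.4 in replicates 2 and 3 (-0.84 ± 0.24, adjusted p = 0.0346), while tbx16 was not called (adjusted p = 0.317). axin2, a Wnt feedback gene, was higher, with 1130 and 1137 normalised counts in replicate 1, against 648, 565, 665 and 665 in replicates 2 and 3. Hox genes, which set position along the body axis, had 14 of 49 lower and 0 higher (median -0.38); hoxb8b had 162 and 181 normalised counts in replicate 1, against 371, 352, 447 and 457 in replicates 2 and 3. hoxd9a had 1060 and 985 normalised counts in replicate 1, against 1803, 1576, 1650 and 1536 in replicates 2 and 3. The Hox list took 0.0939% and 0.115% of reads in sih and WT replicate 1, against 0.131%, 0.139%, 0.0827% and 0.106% in replicates 2 and 3, so its read share in replicate 1 overlapped that of replicate 3.

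Genes of DNA replication and mitosis had 41 of 98 called lower and 15 higher (median -0.38). mad2l1, of the spindle checkpoint, had 491 and 546 normalised counts in replicate 1, against 1725, 1517, 1533 and 1833 in replicates 2 and 3 (-1.67 ± 0.15, limma adjusted p = 0.00156). tyms, which makes thymidylate, had 526 and 479.5 normalised counts in replicate 1, against 1088, 1014, 1195 and 1029 in replicates 2 and 3. ccnb1 (cyclin B1) had 2028 and 1833 normalised counts in replicate 1, against 3674, 3319, 3951 and 3613 in replicates 2 and 3. Histone genes had 15 of 53 lower and 1 higher (median -0.61), with h2afv, a histone H2A variant gene, at 1353 and 1217 normalised counts in replicate 1, against 2303, 2290, 2851 and 2330 in replicates 2 and 3. Both groups were shifted the same way in the 2 genotypes, with medians of -0.43 within sih and -0.36 within WT for replication genes and -0.57 within sih and -0.41 within WT for histone genes. Ribosome biogenesis genes were mixed (12 higher and 24 lower of 87, median -0.30). gar1, of small nucleolar particles, had 932 and 880.2 normalised counts in replicate 1, against 2191, 2369, 2251 and 2110 in replicates 2 and 3. nolc1, a large nucleolar protein gene, had 1656 and 1525 normalised counts in replicate 1, against 419.6, 608, 577 and 567 in replicates 2 and 3.

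Neural genes had 17 of 64 called higher and 6 lower (median 0.11). elavl3, an RNA-binding protein of newly formed neurons, had 418 and 708 normalised counts in replicate 1, against 108, 131, 105 and 87.5 in replicates 2 and 3 (2.34 ± 0.26, limma adjusted p = 0.00202). elavl4, its paralog of maturing neurons, had 259 and 235 normalised counts in replicate 1, against 60.2, 48.7, 70.2 and 68.8 in replicates 2 and 3. nova2, a neuronal splicing regulator, had 271 and 249 normalised counts in replicate 1, against 18.5, 16.5, 20.1 and 22.6 in replicates 2 and 3. Other neural markers were not called: sox2 of progenitors (adjusted p = 0.234), gfap of radial glia (adjusted p = 0.333) and snap25a of synapses (adjusted p = 0.86). fabp7a, of neural progenitors and radial glia, was lower, with 422 and 394 normalised counts in replicate 1, against 844, 787, 888 and 761 in replicates 2 and 3. In brain, eye and lens genes, the median was 0.23 (-0.10 within sih and 0.43 within WT). Of these genes, 0 were called lower and 3 of 50 higher, or 6% against 16.2% of all tested genes. They were the lens filament gene bfsp2 (18.1 and 31.2 normalised counts in replicate 1, against 0.926, 1.65, 0 and 2.95 in replicates 2 and 3), the hindbrain gene egr2a and the forebrain and midbrain gene otx2 (62.4 and 53.2 normalised counts in replicate 1, against 31.5, 30.6, 21.5 and 22.6 in replicates 2 and 3). The lens crystallin genes cryaa and crybb1 were at or near 0 in all 6 libraries (0 to 15.8 normalised counts) and were not called. The list took 0.0111% and 0.0118% of reads in sih and WT replicate 1, against 0.00982%, 0.0108%, 0.00682% and 0.00784% in replicates 2 and 3. Heart genes had 2 of 19 higher (popdc2 and myl4), or 10.5% against 16.2% of all tested genes, and 0 lower. Within sih their median was 0.03 and within WT -0.44, and over both it was 0.22. This median was -0.11 with edgeR, -0.01 without replicate 2, -0.09 without replicate 3 and -0.44 without sih replicate 1, so it gives no direction. The defining heart markers myl7, vmhc, nppa and tnnt2a were at 0 in both replicate 1 libraries and between 0 and 7.43 normalised counts in the others. tnnt2a, the gene mutated in sih, was therefore too low in these tails to check the genotype labels.

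Among the 15 classes of tissue markers, the 2 markers of the hatching gland changed most, by 3.70 (he1a) and 4.49 (ctslb) on the log2 scale. he1a, a hatching enzyme, had 82.8 and 392 normalised counts in replicate 1, against 18.5, 9.08, 7.16 and 22.6 in replicates 2 and 3 (3.70 ± 0.60, limma adjusted p = 0.0055). ctslb, a cathepsin of the gland, had 13.6 and 67.8 normalised counts in replicate 1, against 0, 0, 0 and 2.95 in replicates 2 and 3. ctsl1b had 17 and 64.2 normalised counts in replicate 1, against 0, 0, 0 and 2.95 in replicates 2 and 3. ctslb and ctsl1b each averaged 0.737 in replicates 2 and 3, so they reached the mean needed for testing through replicate 1 alone. All 3 were higher in both replicate 1 libraries, and within replicate 1 the WT library was several times above the sih library. ctslb and ctsl1b had near-equal values in every library and may share reads, so they do not count as separate support. Both are among the list members called higher. Of the list, 6 of 13 were called higher, 2 lower (cd63 and xbp1) and 5 not called. The median was 0.45, with quartiles of -0.12 and 3.7, so the list did not move as a whole. Pronephros and cloaca genes had 13 of 33 higher and 1 lower (median 0.45), and took 0.0952% and 0.102% of reads in sih and WT replicate 1, against 0.0572%, 0.0597%, 0.0524% and 0.0589% in replicates 2 and 3. slc4a4a, a bicarbonate transporter of the kidney tubule, had 1668 and 1605 normalised counts in replicate 1, against 669, 655, 620.3 and 642 in replicates 2 and 3 (1.34 ± 0.13, adjusted p = 0.00179). cdh17, a cadherin of the pronephric duct, had 2026 and 2670 normalised counts in replicate 1, against 1314, 1362, 1249 and 1619 in replicates 2 and 3. mecom, a transcription factor of the distal tubule, had 106 and 132 normalised counts in replicate 1, against 17.6, 25.6, 25.8 and 27.5 in replicates 2 and 3. The markers slc20a1a and pax8 were not called (adjusted p = 0.281 and 0.602).

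Genes of yolk syncytial layer, liver and gut were mixed. 12 of 54 were lower and 6 higher; the median was -0.16, which became 0.04 with library totals as the scaling and 0.03 against replicate 2 alone. Several secreted or binding proteins were lower: fabp2, a fatty acid binding protein, had 1907 and 2171 normalised counts in replicate 1, against 6333, 5719, 7471 and 6846 in replicates 2 and 3 (-1.69 ± 0.16, limma adjusted p = 0.00163). apoc2, an apolipoprotein, had 2783 and 2682 normalised counts in replicate 1, against 5235, 4501, 4935 and 4681 in replicates 2 and 3. ctsba, cathepsin B, had 3703 and 2861 normalised counts in replicate 1, against 10140, 9380, 10440 and 9416 in replicates 2 and 3. The transcription factor genes hnf4a (134 and 179 normalised counts in replicate 1, against 63, 73.5, 25.8 and 46.2 in replicates 2 and 3) and prox1a (237 and 230.1 normalised counts in replicate 1, against 50, 60.3, 47.3 and 45.2 in replicates 2 and 3) were higher, as was MTTP, which loads lipid onto apolipoprotein B, with 266 and 319 normalised counts in replicate 1, against 110.2, 80.9, 128 and 139.6 in replicates 2 and 3. The list took 0.983% and 1.05% of reads in sih and WT replicate 1, against 1.39%, 1.27%, 1.47% and 1.47% in replicates 2 and 3. The liver marker fabp10a was between 1.65 and 5.73 normalised counts in all libraries.

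**Figure D5:**
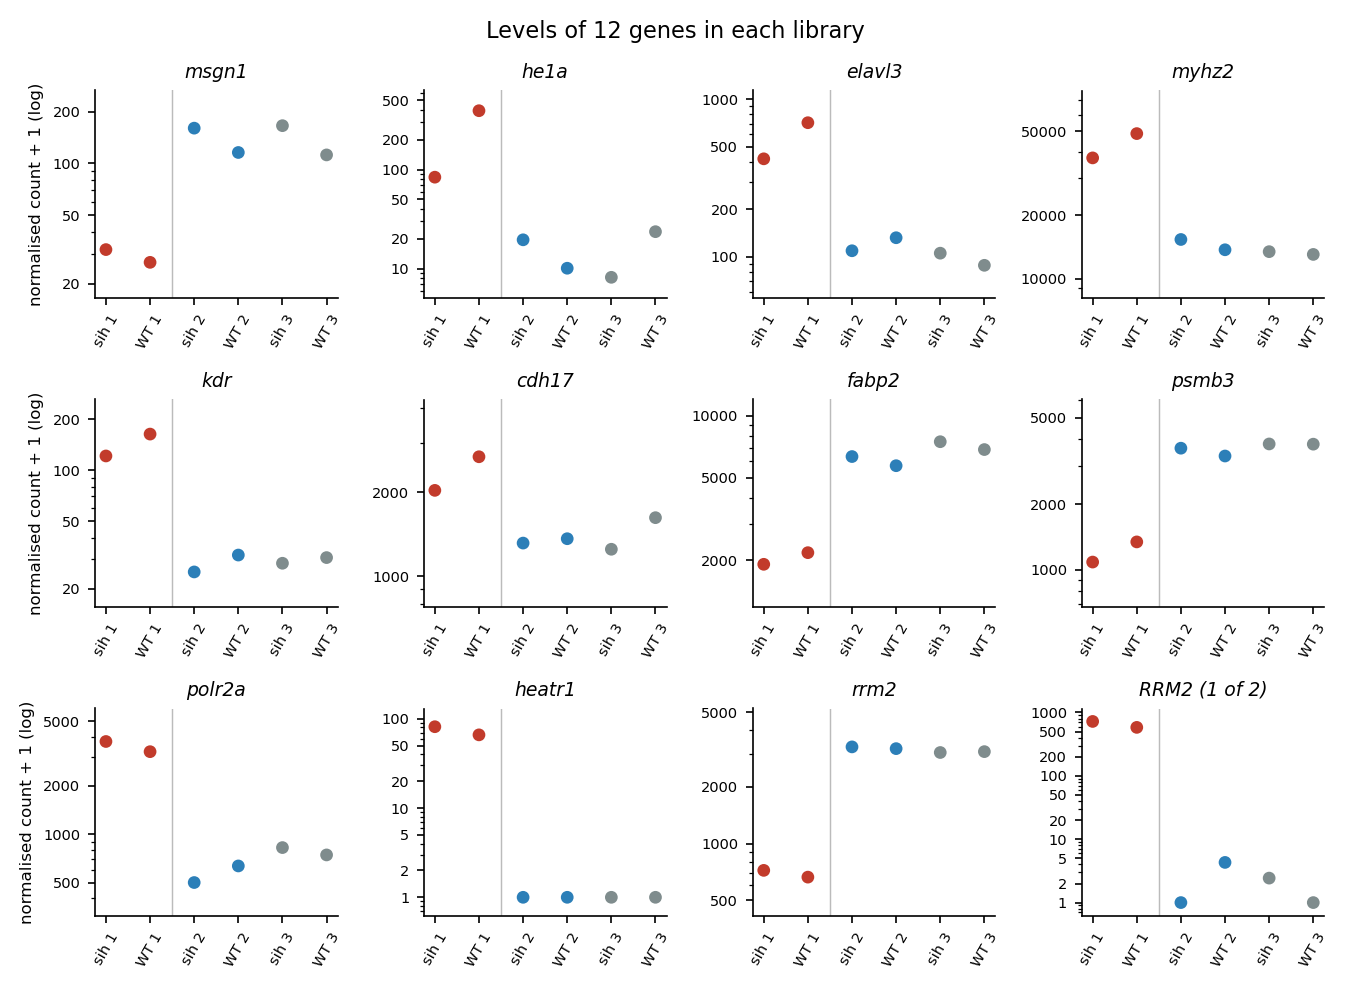
Normalised counts + 1 of 12 genes in each library on log axes of differing range, with the replicate 1 libraries (sih 1, WT 1) left of the grey line and replicates 2 and 3 right of it. Both replicate 1 libraries lie outside the range of the other 4 in every panel, and rrm2 and its copy RRM2 (1 of 2) move in opposite directions. The genes were taken from those named in the text, some listed only if separated or named with their values known. Separation in every panel therefore reflects the choice of genes, and 51.5% of all tested genes were separated.

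Epidermis, periderm and keratin genes had 5 of 46 higher and 7 lower (median -0.26, or -0.06 with library totals). The list took 5.02% and 4.78% of reads in sih and WT replicate 1, against 4.02%, 3.75%, 4.06% and 4.21% in replicates 2 and 3. Its read share was thus higher in both replicate 1 libraries while its median was negative. krt4 held most of these reads (825000 and 669000 normalised counts in replicate 1, against 576000, 489000, 737000 and 686000 in replicates 2 and 3). The share therefore mainly follows that gene and does not describe the list as a whole. The keratin markers krt4, krt5 and cyt1 and the basal-cell gene tp63 were not called (adjusted p from 0.0714 to 0.735). Of the list's called members, pkp3 (plakophilin, a desmosome protein) had 3473 and 3060 normalised counts in replicate 1, against 1817, 1866, 1672 and 1747 in replicates 2 and 3. dspa (desmoplakin, of desmosomes) had 2189 and 2725 normalised counts in replicate 1, against 1412, 1362, 1289 and 1522 in replicates 2 and 3. EPCAM, an epithelial adhesion gene, was lower, with 7310 and 7277 normalised counts in replicate 1, against 20490, 17100, 15270 and 13930 in replicates 2 and 3 (-1.18 ± 0.19, limma adjusted p = 0.00494). Ionocyte genes, of ion-transporting skin cells, were mixed (5 higher and 3 lower of 28, median 0.22). These counts were 17.9% and 10.7%, against 16.2% and 13.2% of all tested genes. The sodium pump gene atp1a1a.5 had 213 and 213 normalised counts in replicate 1, against 64.8, 42.9, 64.5 and 55 in replicates 2 and 3. The carbonic anhydrase gene ca15a had 252 and 294 normalised counts in replicate 1, against 579, 621, 722 and 811 in replicates 2 and 3. Claudin genes, of tight junctions, were 4 higher and 5 lower of 38, median -0.33, with cldn1 at 1322 and 1051 normalised counts in replicate 1, against 2995, 2370, 4587 and 3368 in replicates 2 and 3.

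Pigment cell genes were 8 higher and 4 lower of 34, median 0.00 (0.21 with library totals). The melanophore markers dct, tyrp1b and pmela were not called (adjusted p = 0.215, 0.237 and 0.713), the iridophore gene pnp4a was lower, with 245 and 221 normalised counts in replicate 1, against 458, 451, 529 and 524 in replicates 2 and 3, and the receptor gene csf1ra, of xanthophores and macrophages, was higher, with 82.8 and 108 normalised counts in replicate 1, against 9.26, 6.61, 25.8 and 4.91 in replicates 2 and 3. Neural crest genes were 3 higher and 2 lower of 22, median 0.29; sox9a had 613 and 474 normalised counts in replicate 1, against 151, 173, 251 and 189 in replicates 2 and 3. twist1a had 612 and 557 normalised counts in replicate 1, against 959, 720, 1233 and 955 in replicates 2 and 3. Notochord genes were 8 higher and 2 lower of 30, median 0.02 (0.23 with library totals, -0.19 against replicate 3 alone and 0.25 against replicate 2 alone). ntd5, a notochord gene, had 5642 and 4671 normalised counts in replicate 1, against 10420, 8768, 11250 and 8536 in replicates 2 and 3, and the other 3 members with the smallest p were laminin genes; shha was not called (adjusted p = 0.196). Lateral line genes were 5 higher and 3 lower of 24, median 0.02, and here too both directions occurred. oc90, an otolith-matrix gene, had 237 and 229 normalised counts in replicate 1, against 108, 104, 107 and 100.2 in replicates 2 and 3. cxcr4b, a chemokine receptor gene of the migrating primordium, had 293 and 224 normalised counts in replicate 1, against 407, 421, 461 and 374 in replicates 2 and 3.

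Blood and vessel genes were mixed. Erythroid genes were 5 higher and 3 lower of 34 (14.7% and 8.82%, against 16.2% and 13.2% of all tested genes). Their median was -0.05 (0.16 with library totals). Both replicate 1 libraries lay above the other 4 for 1 member and below them for 2 (28.4% and 23.1% of all tested genes did). That comparison pools the genotypes, so genes far apart between sih and WT can hardly be separated by it. slc4a1a and prdx2 were not separated, yet within each genotype replicate 1 lay outside replicates 2 and 3 for both. The low counts therefore do not show a smaller difference by number. For each erythroid gene named here, sih stood above WT within every number. slc4a1a, the red cell anion exchanger, had 11320 and 2376 normalised counts in replicate 1, against 7572, 1354, 6893 and 1642 in replicates 2 and 3 (0.66 ± 0.14, limma adjusted p = 0.0149). alad, an enzyme of haem synthesis, had 880.3 and 617 normalised counts in replicate 1, against 1897, 1042, 1897 and 1205 in replicates 2 and 3. prdx2, a peroxidase, had 4776 and 2998 normalised counts in replicate 1, against 7674, 4681, 9531 and 5972 in replicates 2 and 3. gata1a, the erythroid transcription factor, was higher, with 536 and 118 normalised counts in replicate 1, against 288, 59.5, 276 and 85.5 in replicates 2 and 3. The markers hbae3 and alas2 were not called, with changes of -0.34 and 0.34 (limma adjusted p = 0.255 and 0.132). The other members called higher were tfr1a, klfd and nt5c2l1, and the other called lower was blvrb. Endothelial genes were 12 higher and 3 lower of 56, median 0.34: kdr, a VEGF receptor gene, had 120.3 and 162 normalised counts in replicate 1, against 24.1, 30.6, 27.2 and 29.5 in replicates 2 and 3 (2.29 ± 0.26, adjusted p = 0.0021). cdh5, of endothelial junctions, had 51 and 116 normalised counts in replicate 1, against 25.9, 17.3, 10 and 7.86 in replicates 2 and 3, and egfl7 was lower, with 252 and 266 normalised counts in replicate 1, against 501, 389.7, 652 and 415 in replicates 2 and 3. kdrl and fli1a were not called (adjusted p = 0.118 and 0.124). Macrophage and neutrophil genes were 4 higher and 1 lower of 43 (9.3% and 2.33%, both under the shares of all tested genes), median 0.10. The myeloid markers mpx, lyz and lcp1 were not called (limma adjusted p = 0.155, 0.172 and 0.131). csf3r, the neutrophil growth factor receptor, had 12.5 and 8.25 normalised counts in replicate 1, against 0, 0.826, 0 and 0 in replicates 2 and 3. This gene rested on 11 and 9 reads and reached the mean needed for testing through replicate 1 alone. lect2l had 326 and 297 normalised counts in replicate 1, against 514, 491, 769 and 799 in replicates 2 and 3. In bulk tails, fewer cells of a type and less RNA per cell cannot be told apart.

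Genes that respond to handling, light and stress were called in both directions, beside 16.2% higher and 13.2% lower over all tested genes. Immediate early genes were 15 higher and 4 lower of 51 (29.4% and 7.84%), median 0.11, with medians of 0.36 within sih and -0.07 within WT. irs2, a list member that encodes an adaptor of insulin signalling, had 149 and 130.2 normalised counts in replicate 1, against 13, 9.91, 11.5 and 12.8 in replicates 2 and 3. klf4a had 71.5 and 66 normalised counts in replicate 1, against 7.41, 4.95, 10 and 5.9 in replicates 2 and 3. fosl1a, of the AP-1 factor, had 149.7 and 99 normalised counts in replicate 1, against 13, 12.4, 24.4 and 31.4 in replicates 2 and 3, while ier5 was lower with 1635 and 1623 normalised counts in replicate 1, against 2766, 2718, 2973 and 2866 in replicates 2 and 3. The first 3 were higher in both replicate 1 libraries by more than the spread of the other 4. Circadian and light genes were 8 higher and 1 lower of 45, median 0.08 (0.20 within sih and -0.15 within WT); clock3 had 104 and 132 normalised counts in replicate 1, against 25.9, 23.9, 33 and 41.3 in replicates 2 and 3. arntl1b, its partner, had 125 and 145 normalised counts in replicate 1, against 40.8, 41.3, 54.4 and 57 in replicates 2 and 3. Hypoxia genes were 9 higher and 3 lower of 33 (27.3% and 9.09%), median 0.40. They took 0.124% and 0.128% of reads in sih and WT replicate 1, against 0.0949%, 0.101%, 0.0819% and 0.0953% in replicates 2 and 3. Of these genes, slc2a1b, a glucose transporter gene, had 225 and 210 normalised counts in replicate 1, against 24.1, 23.1, 34.4 and 27.5 in replicates 2 and 3. hig1 was lower, with 348 and 360.3 normalised counts in replicate 1, against 800.3, 1096, 1010 and 1242 in replicates 2 and 3. p53 pathway genes were 4 higher and 7 lower of 34, median -0.30; phlda3 had 38.6 and 51.4 normalised counts in replicate 1, against 169, 144, 264 and 230 in replicates 2 and 3. cdkn1a had 77.1 and 68.8 normalised counts in replicate 1, against 158, 131, 248 and 198 in replicates 2 and 3. The list of cytosolic heat shock genes had 5 higher and 10 lower of 37, median -0.06 (0.15 with library totals). It also held the mitochondrial chaperone genes hspe1 and hspd1, both called lower. The mitochondrial co-chaperone gene hspe1 had 1966 and 1762 normalised counts in replicate 1, against 4202, 4387, 4763 and 4277 in replicates 2 and 3. hspa4b, of a larger chaperone, was higher, with 2963 and 2618 normalised counts in replicate 1, against 1632, 1588, 1392 and 1717 in replicates 2 and 3.

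Endoplasmic reticulum chaperone genes were 6 higher and 9 lower of 39, median -0.18 (0.03 with library totals; 0.06 against replicate 3 alone). ssr3, a translocon subunit, had 1047 and 944 normalised counts in replicate 1, against 2266, 2401, 2485 and 2557 in replicates 2 and 3. The folding factor gene creld2 had 116 and 230.1 normalised counts in replicate 1, against 466, 714, 338 and 430.5 in replicates 2 and 3. Glycolysis genes were 4 higher and 8 lower of 31, median -0.16 (0.05 with library totals; 0.05 against replicate 2 alone): ldha had 5215 and 6816 normalised counts in replicate 1, against 2654, 2801, 2381 and 3117 in replicates 2 and 3. MPC1, of the mitochondrial pyruvate carrier, had 1311 and 1207 normalised counts in replicate 1, against 2470, 2114, 3371 and 2735 in replicates 2 and 3. Cholesterol and lipid synthesis genes were 8 higher and 3 lower of 36, median 0.41 (0.67 within sih and 0.06 within WT); acaca, the first enzyme of fatty acid synthesis, had 682 and 579.5 normalised counts in replicate 1, against 306, 277, 278 and 292 in replicates 2 and 3. Its regulator srebf1 had 204 and 154 normalised counts in replicate 1, against 35.2, 32.2, 65.9 and 49.1 in replicates 2 and 3. Amino acid response genes were 6 higher and 4 lower of 45, median 0.06, with the tRNA synthetase gene eprs at 8056 and 6265 normalised counts in replicate 1, against 2696, 2698, 3291 and 3208 in replicates 2 and 3. Translation factor genes were 15 higher and 22 lower of 95 (15.8% and 23.2%, against 16.2% and 13.2% of all tested genes). Their median was -0.18 (0.03 with library totals). EIF4G1 (3 of 3), a scaffold of cap binding, had 1723 and 1397 normalised counts in replicate 1, against 86.2, 54.5, 236 and 90.4 in replicates 2 and 3. The initiation factor gene eif6 had 659 and 817 normalised counts in replicate 1, against 1287, 1313, 1375 and 1427 in replicates 2 and 3.

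Cilia genes were 5 higher and 12 lower of 58, median -0.28; the ciliary transport gene ift20 had 84 and 92.6 normalised counts in replicate 1, against 256, 278, 216 and 219 in replicates 2 and 3. The ciliary transport gene ift140 had 323 and 282 normalised counts in replicate 1, against 163, 139, 163 and 147 in replicates 2 and 3. Protease genes of the metalloprotease and cathepsin families were 7 higher and 7 lower of 44, median 0.23, evenly divided. ctsk, a cathepsin, was lower, with 571 and 509 normalised counts in replicate 1, against 1225, 1116, 1556 and 1409 in replicates 2 and 3. mmp14a, a membrane metalloprotease, was higher, with 1524 and 1310 normalised counts in replicate 1, against 925, 944, 718 and 876 in replicates 2 and 3. MHC, NITR and GIMAP genes, which vary between haplotypes, were 2 higher and 2 lower of 29, median -0.47, and 15 of 44 were too low to test. These counts were 6.9% in each direction, under the 16.2% higher and 13.2% lower of all tested genes. mhc1lga had 5.67 and 7.33 normalised counts in replicate 1, against 0, 0, 1.43 and 0 in replicates 2 and 3, so that it was detected mainly in replicate 1, whereas mhc1uma was at 0 there. The mhc1lga values rested on only 5 and 8 reads, and it reached the mean needed for testing through replicate 1 alone.

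The change also varied with level. With the tested genes split by mean level into 4 bins of equal size, the median log2 change was 0.30, 0.21, -0.02 and -0.15 in order from the lowest bin to the highest. Genes called lower made up 2.25%, 6.88%, 17.1% and 26.5% of these bins, and genes called higher 9.37%, 18.6%, 18.8% and 18%. A gene was tested if its mean reached 1 in either set, so weak genes could enter through high replicate 1 values alone. This can raise the median of the lowest bin (means of 0.342 to 10). With only genes of a mean of at least 10, the median over all genes was 0, with 3452 called higher and 3193 lower. Among the most abundant genes called lower were si:dkey-151g10.6 (70500 and 57180 normalised counts in replicate 1, against 115200, 84750, 155400 and 119900 in replicates 2 and 3), mt-atp6 (45730 and 54270 normalised counts in replicate 1, against 78300, 95400, 70480 and 78440 in replicates 2 and 3) and rpl19 (43470 and 34900 normalised counts in replicate 1, against 62260, 50820, 83380 and 66970 in replicates 2 and 3). With library totals in place of the deposited scaling, the median over all genes moved by 0.20 to 0.26, and 74.6% of 5621 called genes were higher, against 55.1% of the 6784. Across all 54 tissue markers, 50 were tested, of which 10 were called higher and 4 lower, beside 16.2% higher and 13.2% lower over all tested genes. What set the replicate 1 libraries apart was not tested; any difference in stage, in the stretch of tail taken or in library handling would go with the number and cannot be told apart here.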

How the data were processed

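Values were gene read counts divided by 1 factor per library, a normalised signal the authors deposited; per the submitters' processing notes, the build was listed as Zv9 and the tools as HTSeq 0.5.3p5, TopHat and edgeR 3.0.8, without saying what each did. Every value came out as a whole read (tolerance 1e-06), so the depth of each library was recovered. Of 25745 genes, 23097 averaged 1 or more in replicate 1 or in replicates 2 and 3 and were tested, and 2648 were below this filter. limma 3.58.1 (R 4.3.3) with a mean-variance trend was fitted to log2(value + 1) with genotype and replicate 1 as terms, two-sided, with Benjamini-Hochberg adjustment over all tested genes. As alternatives, edgeR 4.0.16 and DESeq2 1.42.0 tested the whole reads. The script was tested on simulated data in which all 6 libraries were drawn independently. That test does not cover libraries that resemble each other by number, as these do.

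The libraries were chosen by number, and the 46 gene lists and the markers were chosen with earlier results of these data known; 9 further lists (very large proteins, laminins, plexins and Notch, dynein and myosin chains, RNA polymerase II, import translocases) were added after the values were seen. Of the list members, 2213 were matched to a gene in the table and 94 were not. Named genes were the 15 largest rises and falls that were called, separated and at a mean of at least 50 in the higher set, up to 4 called members of each list by p, the 3 called genes of highest level in either direction and the gene with the smallest interaction p; other members were named after their values were seen. Same-numbered sih and WT libraries deviated together from their genotype means (correlations of 0.932, 0.884 and 0.852 for numbers 1, 2 and 3 over 13248 genes with a mean of at least 50). The number is here the factor compared, and nothing in the sources says whether it marks separate cultures of embryos, so the p-values measure only the spread among these libraries. Gene and protein lengths were not used here, and no sequence is printed.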

Additional observations from a re-analysis of the deposited data

Results flagged for a closer look

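In 82 sets of 4 values (read shares of the lists and levels of the largest rises, largest falls and most abundant called genes, in replicates 2 and 3), 8 held 1 library far from the other 3 by Dixon's criterion, where chance gives about 1 in 20. Replicate 1 lay outside the range of these 4 libraries in each case. For the genes among them this was fixed beforehand, since the largest rises and falls were listed only if replicate 1 was separated.

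Genes of nuclear oxidative phosphorylation took 1.47% and 1.48% of reads in sih and WT replicate 1, against 2.05%, 2.04%, 2.16% and 2.06% in replicates 2 and 3, with sih 3 apart from the rest (gap over range 0.833). Immediate early genes took 0.225% and 0.196% in replicate 1, against 0.164%, 0.165%, 0.144% and 0.166%, again with sih 3 apart (0.909). BICD2 (2 of 2), a copy of a dynein adaptor gene, had 52.2 and 71.5 normalised counts in replicate 1, against 0.9263 in sih 2 and 0 in the other 3. NLRX1 (4 of 54) had 48.8 and 60.5 in replicate 1, against 0.9828 in WT 3 and 0 in the other 3. si:zfos-1697h8.2 had 53.3 and 48.6 in replicate 1, against 1.966 in WT 3 and 0 in the other 3. These 3 departures rest on 1 or 2 reads. PLEKHG1 had 126 and 117 in replicate 1, with 5.73 in sih 3 above the other 3 (1.65 to 1.97). DMXL2 (1 of 2), of a synaptic vesicle protein, had 185 and 115 in replicate 1, with 11.46 in sih 3 above the other 3 (1.65 to 2.95). BAALC (ENSDARG00000089549) had 11.3 and 11 in replicate 1, with 62.75 in WT 2 below the other 3 (93.6 to 98.3). What set these libraries apart was not tested.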

How the results depend on the processing

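The counts of genes that separated replicate 1 from replicates 2 and 3 (6784, with 3735 higher and 3049 lower) depended on how the number was treated. As a replicate block with 3 levels, which takes the spread between numbers 2 and 3 out of the error, they were 11866 (6275 higher, 5591 lower). With the number as a random effect they were 3992 (2252 and 1740). With means per number they were 0 in each direction. With 1 library left out, they ran from 0 to 7376 (higher 0 to 4066, lower 0 to 3310). They were 0 without sih replicate 1 or without WT replicate 1; without WT replicate 3, 1985 were lower. Without number 2 the count was 11203 (6117 and 5086), and without number 3 it was 11979 (6173 and 5806). At an adjusted p of 0.01 they were 2634 (1592 and 1042). With library totals 1425 were lower, and with edgeR and library totals (chosen after seeing the data) 1311. The other counts stayed within 1.5 times. No named gene reversed. Of 204 gene results, 203 fell below the threshold with means per number and 203 without either replicate 1 library; other settings lost at most 29. Of 55 list medians, 50 moved with library totals (cilia -0.28 to -0.07, p53 -0.30 to -0.09, ribosome biogenesis -0.30 to -0.09, Hox -0.38 to -0.17). Medians of a size over 0.1 changed sign for 5 lists with library totals, 1 with edgeR, 2 with edgeR and library totals, 3 without sih replicate 1, 2 without WT replicate 1, 1 or 2 without any other library, and 3 without number 2 or number 3. The interaction count was 0 in each alternative run for it. The protein length comparison was not run. Causes were not tested.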

Other observations

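Of 1712 gene names carried by 2 tested identifiers, 25 had 1 copy called higher and the other lower in replicate 1, against 173 with both higher and 45 with both lower. Over all tested genes, 16.2% were called higher and 13.2% lower. Pairs of unrelated genes would thus also hold opposite calls, and the 25 are not given as an excess. Where both copies were called, calls in the same direction were the more common. The set of 25 was noticed after the values were seen and is a description. Such copies may share reads, so their separate levels are uncertain. UQCRFS1, the iron-sulphur subunit of respiratory complex III, is an example: uqcrfs1 changed by 3.87 and UQCRFS1 (2 of 2) by -1.70 on the log2 scale. Summed over both, UQCRFS1 had 1370 and 1197 normalised counts in replicate 1, against 2340, 2225, 2501 and 2129 in replicates 2 and 3. MRPL53, of the mitochondrial ribosome, changed by 4.67 and -2.29 in its copies, and its sum was 61.3 and 71.5 in replicate 1, against 135, 134, 119 and 127. CTH, of cysteine synthesis, changed by 4.66 (cthl) and -0.89 (cth), with a sum of 708 and 816 in replicate 1, against 1245, 1347, 1322 and 1396. In these 3 the summed level was lower in both replicate 1 libraries than in the other 4.

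For SLC16A1, a lactate transporter, the sum was higher, at 346 and 461 in replicate 1, against 162, 169, 193 and 172, and slc16a1 changed by 1.58 while SLC16A1 (2 of 2) changed by -1.26. For CAVIN1, a caveola coat gene, ptrfb changed by 2.01 and ptrfa by -0.62, with a sum of 936 and 1241 in replicate 1, against 379, 476, 556 and 462. The sum changed more than 2-fold for 6 of the 25 names.

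Near-absence was also counted in each direction. In 51 genes, replicates 2 and 3 held at most 3 reads in every library while both replicate 1 libraries held at least 20, and in 8 of these replicates 2 and 3 had no read at all. The opposite case, at most 3 reads in replicate 1 and at least 20 in each other library, occurred for 3 genes. The 2 sets face different numbers of libraries, so these counts are not a like comparison.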
